A study of Mus musculus with 42 samples.

Results

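The 9 genes described here encode nuclear subunits of cytochrome c oxidase that exist as tissue isoforms, or stand beside them as a general subunit: Cox4i1, Cox4i2, Cox6a1, Cox6a2, Cox6b1, Cox7a1, Cox7a2, Cox8a and Cox8b. They were taken as the non-control probes whose gene name on the array was one of these symbols, which gave 10 probes for 9 genes among 41174 non-control probes and 27597 gene names. RNA of liver, quadriceps muscle and visceral fat from female C57BL/6 mice was hybridised to 42 one-colour Agilent mouse arrays. The mice were wild-type or had 1 copy of Akt1, the gene of a kinase in insulin signalling, deleted (Akt1+/-) on a line backcrossed to C57BL/6, and the labels give 8 and 35 weeks of age (the methods state an older age for the older mice). For each tissue, either genotype was represented by 3 arrays of the younger and 4 of the older mice, 14 in all. The labels name no treatment and do not state how many mice an array represents.

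Cytochrome c oxidase, or complex IV, is the last enzyme of the mitochondrial respiratory chain and passes electrons from cytochrome c to oxygen. Its catalytic core is encoded in mitochondrial DNA, and the surrounding small subunits, encoded in the nucleus, adjust assembly and activity. Several of these come in a form found in most tissues, called the liver or L form (Cox6a1, Cox7a2, Cox8a), and a form of contractile tissue, called the heart or H form (Cox6a2, Cox7a1, Cox8b). Cox8b is also known as a gene of brown adipocytes. Cox4i1 is the general form of subunit 4, Cox4i2 is known best from lung, and Cox6b1 is a general subunit with no muscle partner.

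The 250 bases before the transcription start are shown for 5 genes of the H and L pairs, those in the RefSeq promoter table (GRCm38.p6). They were chosen with their levels and composition known, so the contrast given below only describes these 5 stretches. The H form Cox6a2 is not among them. Capitals mark CpG dinucleotides, and each sequence is written 5′ to 3′ on the strand of its gene. The L-form promoters lay at chr5:115348959-115349208 (minus strand), chr9:79759854-79760103 (minus strand) and chr19:7217617-7217866 (minus strand), and read as follows.
Cox6a1: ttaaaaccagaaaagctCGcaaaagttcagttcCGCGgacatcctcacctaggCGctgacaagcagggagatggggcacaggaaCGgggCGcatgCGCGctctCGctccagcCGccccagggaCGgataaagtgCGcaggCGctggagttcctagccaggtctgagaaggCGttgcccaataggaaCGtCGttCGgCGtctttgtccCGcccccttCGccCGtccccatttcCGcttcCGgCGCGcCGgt
Cox7a2: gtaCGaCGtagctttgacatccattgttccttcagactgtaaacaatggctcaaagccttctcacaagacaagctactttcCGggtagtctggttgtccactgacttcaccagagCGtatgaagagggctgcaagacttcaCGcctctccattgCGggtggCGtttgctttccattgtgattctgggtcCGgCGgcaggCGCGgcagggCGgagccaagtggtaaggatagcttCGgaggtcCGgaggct
Cox8a: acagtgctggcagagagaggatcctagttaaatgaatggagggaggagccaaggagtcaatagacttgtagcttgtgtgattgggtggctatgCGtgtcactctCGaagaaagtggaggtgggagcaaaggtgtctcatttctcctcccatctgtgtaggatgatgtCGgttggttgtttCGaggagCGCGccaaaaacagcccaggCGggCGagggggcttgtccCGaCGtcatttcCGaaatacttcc

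The H-form promoters lay at chr7:30183921-30184170 (plus strand) and chr7:140900447-140900696 (minus strand), both shown for contrast with the L forms.
Cox7a1: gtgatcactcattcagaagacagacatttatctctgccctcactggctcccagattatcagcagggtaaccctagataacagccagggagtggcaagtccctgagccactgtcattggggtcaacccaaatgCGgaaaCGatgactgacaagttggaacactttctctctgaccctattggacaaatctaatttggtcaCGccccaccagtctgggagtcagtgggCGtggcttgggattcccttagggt
Cox8b: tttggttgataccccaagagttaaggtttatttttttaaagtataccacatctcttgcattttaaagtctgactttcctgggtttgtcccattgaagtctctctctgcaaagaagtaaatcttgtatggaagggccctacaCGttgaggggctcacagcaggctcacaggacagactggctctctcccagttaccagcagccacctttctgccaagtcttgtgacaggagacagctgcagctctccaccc

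The L-form stretches held 26 (Cox6a1), 14 (Cox7a2) and 11 (Cox8a) CpG dinucleotides, against 4 for Cox7a1 and 1 for Cox8b, where the median over 32841 promoters of the table was 6. GC content ran from 47.2% for Cox8b to 62.8% for Cox6a1. Motifs were searched as exact letters on both strands. Cox6a1 held CCGGAAG, the core of ETS factor sites, on the opposite strand at 16 to 10 bases before the start, a motif that 6.91% of all promoters hold. It also held the NRF1 core GCGCATGCG on both strands, with the matches overlapping, which 1.45% of promoters hold. An E-box, CANNTG, stood once in each of Cox7a1 (CAAATG), Cox7a2 (CAAGTG), Cox8a (CATCTG) and Cox8b (CAGCTG), and in none of Cox6a1, while 66.2% of all promoters hold at least 1. Neither AAGGTCA nor TATAAA was found in these 5 stretches, and 4.08% and 12.4% of promoters hold them. Cox6b1 held 2 E-boxes and 1 ETS core among 14 CpG dinucleotides.

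Levels are given as log2 of the spot intensity minus the 75th percentile of that array, so that 0 is the array's 75th percentile and 1 unit is a 2-fold difference. A probe's level depends on its own binding, so levels of different genes were not compared. The probes lay, in the mm8 build of the array design, at chr8:123560001-123560060 for Cox4i1, chr5:115606716-115606775 for Cox6a1, chr7:127996794-127996853 for Cox6a2, chr7:29894078-29894689 for Cox7a1, chr9:79541104-79541163 for Cox7a2, chr19:7282281-7282340 for Cox8a, chr7:140750273-140750332 for Cox8b, chr7:30333316-30334812 for Cox6b1 and chr2:152445655-152446644 for Cox4i2. The listed spans of Cox4i2, Cox6b1 and Cox7a1 are longer than those of the other probes. A gene annotation of mm8 was not used here. Cox7a2 had a second, overlapping probe, which was dimmer and ordered the tissues alike.

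The tissue labels held against marker genes. All 5 hepatocyte markers on the array were well above background in each liver array, and all 6 skeletal muscle and all 6 adipocyte markers were so in each array of muscle and of fat. Adipocyte transcripts were also present in muscle, where 5 or 6 of the 6 markers were well above background on each array. Their log2 summed level was 7.23 to 8.33 in muscle, against 10.21 to 10.84 in fat and 1.98 to 3.07 in liver. Akt1 was lower in Akt1+/- than in wild-type arrays of the same tissue and age without overlap, by 0.67 (SE 0.08) in liver, 0.58 (SE 0.11) in muscle and 0.55 (SE 0.07) in fat on the log2 scale, with adjusted p of 0.0027, 0.074 and 0.0069; where the probe lies against the deleted part of the gene is not given in the sources used here. Array brightness (75th percentile intensity 274 to 795) and the share of probes well above background (56.5% to 68.6%) overlapped between liver and muscle, and fat was brighter. Liver Akt1+/- replicates 1 and 3 at 8 weeks stood apart through muscle transcripts, and 1 muscle array, Akt1+/- replicate 3 at 8 weeks, had all 5 hepatocyte markers well above background (log2 of their summed level 5.30, against −1.46 to 1.97 in the other 13 muscle arrays). The 2 liver arrays shared a slide that held no other array of this series. Replicate 2 of their group lay on another slide with muscle arrays, among them that same muscle array. In this liver group, slide and muscle transcripts cannot be told apart.

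The H forms were high in muscle, and 2 of the L forms were lower there than in the other tissues. Cox6a2, the H form of subunit 6a, ranged over 14 muscle arrays from 8.55 through a median of 9.00 to 9.22, over fat from −4.34 through −3.09 to −1.35, and over liver from −4.11 through −3.75 to −0.44. Cox7a1, the H form of subunit 7a, ran from 8.35 through 8.48 to 9.10 in muscle, −0.29 through 0.56 to 2.12 in fat and 0.79 through 1.05 to 1.58 in liver. Muscle did not overlap either other tissue for these genes, whereas fat and liver overlapped.

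Cox8b, the H form of subunit 8, ran from 7.33 through 7.66 to 8.15 in muscle and from 0.85 through 1.68 to 3.01 in fat. In liver it was well above background on 3 of 14 arrays, with levels from −6.52 through −5.60 to −1.90. Its order of muscle, then fat, then liver had no overlap at any step, which set it apart from Cox6a2 and Cox7a1, for which fat lay with liver.

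The L forms Cox6a1 and Cox8a were lowest in muscle. Cox6a1 ran from 5.93 through 6.04 to 6.77 in muscle, 7.79 through 8.22 to 8.47 in fat and 8.65 through 8.75 to 9.17 in liver, with no overlap between tissues. Cox8a ran from 4.33 through 4.57 to 5.15 in muscle, 6.69 through 7.13 to 7.36 in fat and 6.93 through 7.08 to 7.46 in liver, so that fat and liver overlapped. The L form Cox7a2 departed from this pattern. It ran from 5.84 through 6.15 to 6.65 in muscle, 5.83 through 6.12 to 6.48 in liver and 4.85 through 5.38 to 5.55 in fat, with muscle and liver on top of each other and fat below both.

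The general subunits were highest in muscle. Cox4i1 ran from 8.11 through 8.36 to 8.96 in muscle, 7.64 through 7.83 to 8.35 in liver and 6.92 through 7.23 to 7.49 in fat. Cox6b1 ran from 2.46 through 3.10 to 3.62 in muscle, 1.62 through 2.11 to 2.49 in liver and 0.99 through 1.66 to 2.01 in fat. For both genes the ranges of muscle and liver overlapped, and those of muscle and fat did not. Cox4i2 was well above background on 1 liver, 6 muscle and no fat arrays of 14 each, did not pass the filter in any fit, and has no fold change here.

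**Figure D1:**
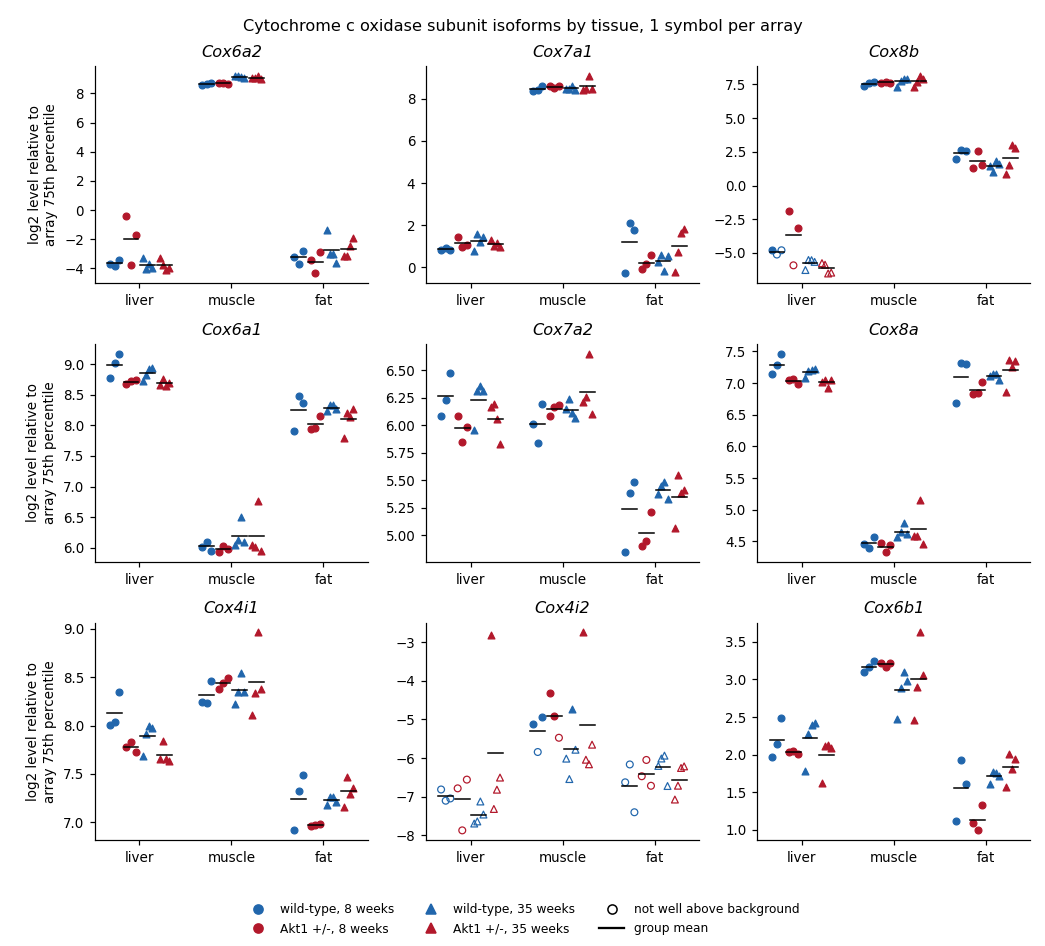
Level of each gene (log2 relative to the array's 75th percentile) in liver, muscle and fat, with 1 symbol per array, colour for genotype, shape for age, open symbols where the spot was not well above background and a line for each group mean. Cox6a2, Cox7a1 and Cox8b are high in all 14 muscle arrays, Cox6a1 and Cox8a are lowest there, and each panel has its own vertical scale.

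The tissues were compared with limma over all 42 arrays, with the 4 groups of a tissue weighted equally and p-values adjusted by the Benjamini-Hochberg method over 19807 genes. Arrays were treated as independent, and the labels do not say whether the tissues came from the same mice. Between muscle and liver, 7 of the 8 genes tested passed an adjusted p of 0.05 (5 higher and 2 lower in muscle), where 85.8% of all genes did. Cox8b, counted among the 5, did not pass the filter in liver and entered this fit through muscle and fat. Only bounds are given for it. The log2 difference was 12.17 (SE 0.24, adjusted p = 3.9e-31) for Cox6a2 and 7.44 (SE 0.19, adjusted p = 7.7e-28) for Cox7a1. For Cox8b, muscle was at least 7672-fold higher than liver in wild-type mice at 35 weeks, and at least 8652-fold in the Akt1+/- group of that age, where none of the 4 liver arrays of either genotype measured it above background. Each bound sets the muscle mean against the lowest signal among probes well above background on the liver arrays.

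The L forms were lower in muscle than in liver, by 6.56-fold for Cox6a1 (log2 −2.71, SE 0.07, adjusted p = 3.7e-27) and by 5.94-fold for Cox8a (log2 −2.57, SE 0.07, adjusted p = 1.9e-27). Cox7a2 was the exception, with a log2 difference of 0.02 (SE 0.07, adjusted p = 0.80). Cox6b1 was 1.93-fold and Cox4i1 1.43-fold higher in muscle. With background correction by normexp and quantile normalisation, the difference of Cox7a2 came to 0.21 (adjusted p = 0.0018). In whole tissue, a change in the share of a cell type and a change in RNA per cell cannot be told apart.

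Between muscle and fat, all 8 genes tested passed (6 higher and 2 lower in muscle), where 87.6% of all genes did. The difference in log2 was 11.93 (SE 0.24) for Cox6a2, 7.85 (SE 0.19) for Cox7a1 and 5.75 (SE 0.26) for Cox8b. Cox6a1 and Cox8a were 4.19-fold and 5.73-fold lower in muscle. Cox7a2, Cox4i1 and Cox6b1 were higher in muscle by 1.86-fold, 2.29-fold and 2.83-fold. For Cox7a2 the difference was much smaller under normexp and quantile normalisation, where muscle and fat each lay close to liver (previous and next paragraph). The sizes of the other smaller folds may depend on the scaling too. Under normexp and quantile normalisation, fat against liver reversed for Cox7a2 and Cox4i1 (next paragraph).

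Between fat and liver, 6 of 8 genes passed (1 higher and 5 lower in fat), where 86.2% of all genes did. The 1 higher gene, Cox8b, did not pass the filter in liver and entered the fit through muscle and fat, so only bounds are read for it. Cox8b was higher in fat, by at least 99.3-fold in wild-type mice at 35 weeks and at least 165-fold in the Akt1+/- group of that age. Cox7a2 (log2 −0.87, SE 0.07), Cox4i1 (log2 −0.68, SE 0.07) and Cox6a1 (log2 −0.65, SE 0.07) were lower in fat, but with normexp and quantile normalisation all of these turned to 0.055, 0.23 and 0.18. Cox8a, at −0.05 (SE 0.07, adjusted p = 0.48), came to 0.95 under that setting. Cox6b1 was lower by 1.46-fold. Cox7a1 differed by −0.42 (SE 0.19, adjusted p = 0.038), and this call was lost without the 2 liver arrays with muscle transcripts (−0.37, adjusted p = 0.11). Cox6a2 went the other way, from 0.24 (SE 0.24, adjusted p = 0.33) to 0.70 (SE 0.20, adjusted p = 0.0021) without them.

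The ratio of H to L form within an array is not touched by the scaling of arrays, and is given as a description with no test, since both probes of a ratio differ in binding and only its shifts between samples can be read. Cox6a2 over Cox6a1 had a mean log2 ratio of 2.80 ± 0.23 (SD, n = 14) in muscle, −11.17 ± 0.72 in fat and −12.17 ± 1.08 in liver. Cox7a1 over Cox7a2 had 2.37 ± 0.12 in muscle, −4.60 ± 0.73 in fat and −5.03 ± 0.27 in liver. Muscle did not overlap the other tissues in either ratio, and fat overlapped liver in both.

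Cox8b over Cox8a averaged 3.09 ± 0.20 (SD, n = 14) in muscle, −5.20 ± 0.64 in fat and −12.36 ± 1.29 in liver, with the liver values resting on spots of Cox8b not well above background on 11 of 14 arrays. The shift between fat and liver was 0.996 for Cox6a2 over Cox6a1 and 0.42 for Cox7a1 over Cox7a2. For Cox8b over Cox8a no size is given for that shift, since the liver ratio is mostly set by background. No fat array overlapped a liver array in that pair.

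**Figure D2:**
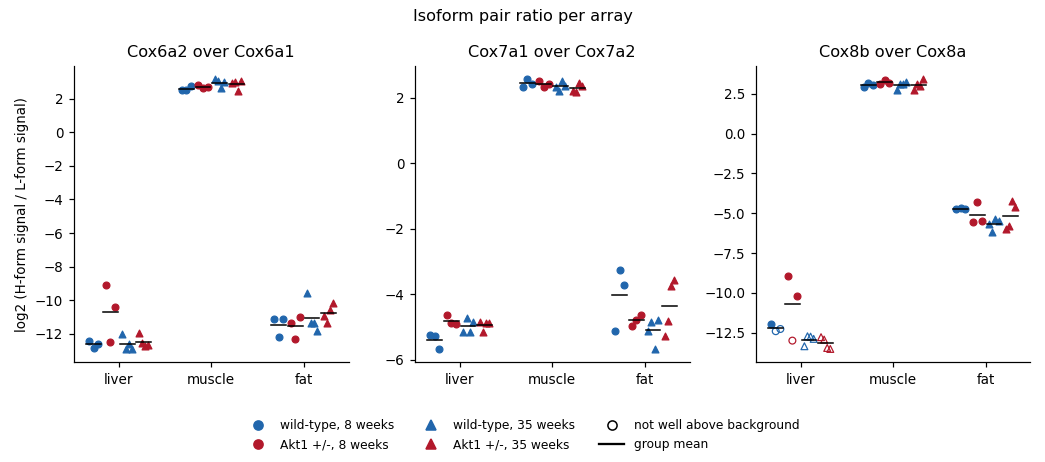
Log2 ratio of H-form to L-form signal per array for the pairs of subunits 6a, 7a and 8, by tissue, with colour for genotype, shape for age, open symbols where either spot was not well above background and lines for group means. Muscle lies near 2.80, 2.37 and 3.09, far above liver, and fat overlaps liver in the first and second pair but not in Cox8b over Cox8a, where most liver symbols are open.

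Within muscle the ratios moved little. Cox7a1 over Cox7a2 had group means from 2.31 to 2.45 and Cox8b over Cox8a from 3.06 to 3.22, and each genotype overlapped the other at both ages. Cox6a2 over Cox6a1 averaged 2.60 ± 0.12 at 8 weeks (n = 3) and 2.96 ± 0.22 at 35 weeks (n = 4) in wild-type mice, and 2.71 ± 0.09 and 2.86 ± 0.28 in Akt1+/- mice, with the ages overlapping in both genotypes.

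Age was compared within each tissue, with both genotypes weighted equally. In muscle 1 of 8 genes passed, Cox6a2, where 31.3% of 17095 genes did. Its levels at 8 weeks were 8.55, 8.61 and 8.69 for wild-type mice, then 8.74, 8.68 and 8.66 for Akt1+/- mice. At 35 weeks they were 9.21, 9.18, 9.14 and 9.07 for wild-type mice, then 9.02, 9.03, 9.22 and 8.98 for Akt1+/- mice. Each older array lay above each younger one, by 1.37-fold on average (log2 0.45, SE 0.05, limma adjusted p = 0.00011). The difference was 0.23 (adjusted p = 0.0033) with normexp and quantile normalisation, and it did not pass in a fit over all 42 arrays, which shares 1 estimate of spread with liver and fat (adjusted p = 0.33). In muscle the ages shared no slide, so age and slide cannot be told apart.

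The other H forms of muscle showed smaller differences with age, 0.04 (SE 0.10) for Cox7a1 and 0.15 (SE 0.13) for Cox8b, both without a call. Cox8a came to 0.23 (SE 0.10, adjusted p = 0.097) and Cox6a1 to 0.19 (SE 0.12, adjusted p = 0.26). Cox6b1 gave −0.25 (SE 0.15, adjusted p = 0.24), and −0.35 (adjusted p = 0.035) without the Akt1+/- replicate 3 at 35 weeks, which held the highest level among the muscle arrays for each of the 8 genes tested.

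Fibre type markers of the muscle arrays moved with age as well. Of 6 slow fibre genes 4 rose (Tnni1 1.45, Tnnc1 1.26, Myh7 1.19, Tnnt1 1.13 on the log2 scale) and none fell, and of 6 fast fibre genes 4 rose (Myh4 0.38, Tnni2 0.29, Myh1 0.28, Tnnt3 0.17) and none fell, where 31.3% of all genes were called for age. The median difference was 1.16 for the slow and 0.22 for the fast list, against 0.01 over all genes. The log2 summed level of the slow list ran at 8 weeks from 8.56 to 9.81 in wild-type and from 9.72 to 10.09 in Akt1+/- muscle, and at 35 weeks from 10.06 to 10.43 and from 10.02 to 10.27. All 6 genes of each list were well above background on each muscle array. Their part in the difference of Cox6a2 was not tested.

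In fat 1 of 8 genes passed with age, Cox6b1, where 19.3% of 18333 genes did. Its levels at 8 weeks were 1.12, 1.93 and 1.61 for wild-type mice, then 1.09, 0.99 and 1.33 for Akt1+/- mice, and at 35 weeks 1.61, 1.77, 1.75 and 1.72 for wild-type mice, then 1.57, 2.01, 1.81 and 1.94 for Akt1+/- mice. The Akt1+/- ages did not overlap, and the wild-type ages did. The mean difference was 1.35-fold (log2 0.43, SE 0.12, adjusted p = 0.026), and it was lost under median scaling and when Akt1+/- replicate 1 or 2 at 8 weeks or replicate 2 at 35 weeks was left out (adjusted p 0.050 to 0.065). It was also lost when arrays of the same number at 35 weeks, which deviated together, were treated as a block (log2 0.48, adjusted p = 0.17). In fat, too, the ages shared no slide, so age and slide cannot be told apart. The age difference of Cox6b1 in muscle minus that in fat was −0.68 (SE 0.20, adjusted p = 0.017 in the fit over all arrays).

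In liver 0 of 7 genes tested passed with age (limma), where 34.8% of 17496 genes did. Only 1, Cox6a2, had an unadjusted p under 0.05 (7837 of all genes did). Cox6a2 stood at −3.68, −3.82 and −3.44 in wild-type mice at 8 weeks and at −0.44, −3.79 and −1.69 in Akt1+/- mice. At 35 weeks it stood at −3.29, −4.06, −3.70 and −3.96 for wild-type mice, then −3.30, −3.79, −4.11 and −3.96 for Akt1+/- mice. The 2 high arrays alone left the range of the other 12. The age difference was −0.96 (SE 0.39, adjusted p = 0.075) with them and −0.05 (SE 0.20) without them.

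Cox8b was also highest on these 2 arrays, at −1.90 and −3.19 against −5.92 in replicate 2 of the group and −6.52 to −4.80 in the other groups. Some striated muscle genes were high on the same arrays. Of 20 genes on the skeletal, slow, fast and heart muscle lists, 8 were higher on both than on each of the other 12 liver arrays (Mb, Myh7, Tnnc1, Myl2, Myl3, Myh4, Tnni3 and Tnnt2). Another 7 were not well above background on either, among them the abundant muscle genes Ckm and Acta1 and the fast fibre genes Myh1 and Pvalb. Myoglobin (Mb) stood at 0.73 and −1.08 there, against −7.44 in replicate 2, and slow myosin (Myh7) at 0.59 and −0.73 against −5.49. The heart muscle list reached a log2 summed level of 1.22 and −0.28, against −2.38 to −0.20 in the other 12 liver arrays. All 4 of its genes were well above background on both arrays, and also on wild-type replicates 1 and 2 at 35 weeks, where Mb stood at −2.46 and −4.23. The part of these transcripts in the liver levels of Cox6a2 and Cox8b was not tested. Cox7a1, at 1.44 and 1.06, stayed within the range of the other liver arrays.

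**Figure D3:**
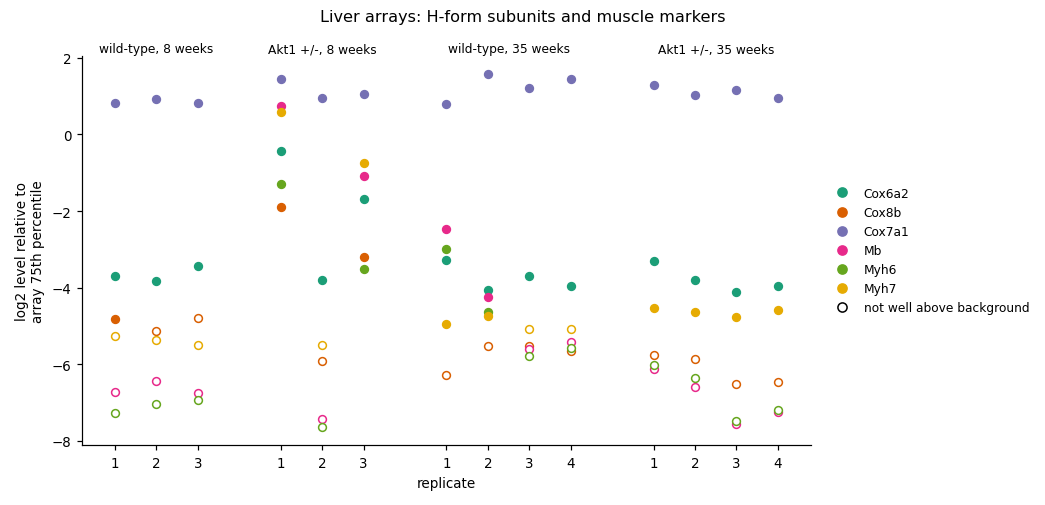
Level (log2 relative to the array's 75th percentile) of 3 H-form genes and the muscle markers Mb, Myh6 and Myh7 on each of 14 liver arrays, with replicates numbered within each group and open symbols where the spot was not well above background. Akt1+/- replicates 1 and 3 at 8 weeks hold the highest Cox6a2 and Cox8b and also the highest Mb and Myh7; levels of different genes are not comparable.

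The difference between tissues in the age effect was tested in the fit over all arrays. For muscle minus liver 2 of 8 genes passed, Cox6a2 (1.41, SE 0.47, adjusted p = 0.034) and Cox8b, where 18.9% of 19807 genes did. Cox8b did not pass the filter in liver and was well above background on 0 of 8 liver arrays at 35 weeks, so its age effect there was not measured and nothing is read from its call. For fat minus liver 1 passed, where 16.2% of genes did, Cox6a2 (1.64, SE 0.47, adjusted p = 0.015). For muscle minus fat 1 passed, Cox6b1, where 16.4% of genes did. Without the 2 liver arrays the differences of Cox6a2 no longer passed, at 0.50 for muscle minus liver and 0.73 for fat minus liver (adjusted p 0.46 and 0.25).

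Genotype gave no call by limma in any tissue. In liver 0 of 7 genes passed for Akt1+/- against wild-type averaged over both ages, where 6.03% of genes did. Of these 7, 4 had an unadjusted p under 0.05 (4599 of all 17496 genes did). The liver levels of Cox4i1 were 8.00, 8.03 and 8.35 for wild-type mice, then 7.77, 7.83 and 7.72 for Akt1+/- mice at 8 weeks, and 7.68, 7.91, 7.99 and 7.97 against 7.65, 7.84, 7.66 and 7.64 at 35 weeks. The genotypes did not overlap at 8 weeks and overlapped at 35 weeks. The log2 difference was −0.27 (SE 0.08, adjusted p = 0.058) for Cox4i1, −0.23 (SE 0.10, adjusted p = 0.15) for Cox7a2, −0.22 (SE 0.07, adjusted p = 0.078) for Cox6a1 and −0.21 (SE 0.06, adjusted p = 0.068) for Cox8a. With arrays scaled to their median these 4 passed, and that scaling moved the median of all liver genes from 0.02 to −0.11; with the methods' two-way test on the same values Cox8a alone passed (adjusted p = 0.041). The liver genotypes lay on separate slides at both ages.

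In muscle 0 of 8 genes passed for genotype, where 0% of genes did (0 of 17095), and 0 had an unadjusted p under 0.05 (3148 of all genes did). The differences of the 8 genes lay between −0.02 and 0.15. In fat 0 of 8 passed, where 0.824% of genes did, and 0 had an unadjusted p under 0.05 (3529 of all genes did). The methods' two-way test also called 0 in muscle and in fat. The difference of the genotype effect between tissues passed for 0 of 8 genes in muscle minus liver, fat minus liver and muscle minus fat, where 0.899%, 4.27% and 0.722% of genes did. An unadjusted p under 0.05 was held by 2, 0 and 0 of the 8 (3230, 3901 and 3093 of all 19807 genes).

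The interaction of genotype and age passed for 0 genes in liver, muscle and fat, by limma and by the methods' two-way test. By limma 0.514%, 0% and 1.59% of all genes passed. An unadjusted p under 0.05 was held by 1, 0 and 1 of the genes described here, and by 2421, 1429 and 3686 of all genes. In fat all 8 estimates were above 0, with a median of 0.37 against 0.01 over all genes, and the largest was that of Cox7a1 at 1.68 (SE 0.80, adjusted p = 0.27).

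**Figure D4:**
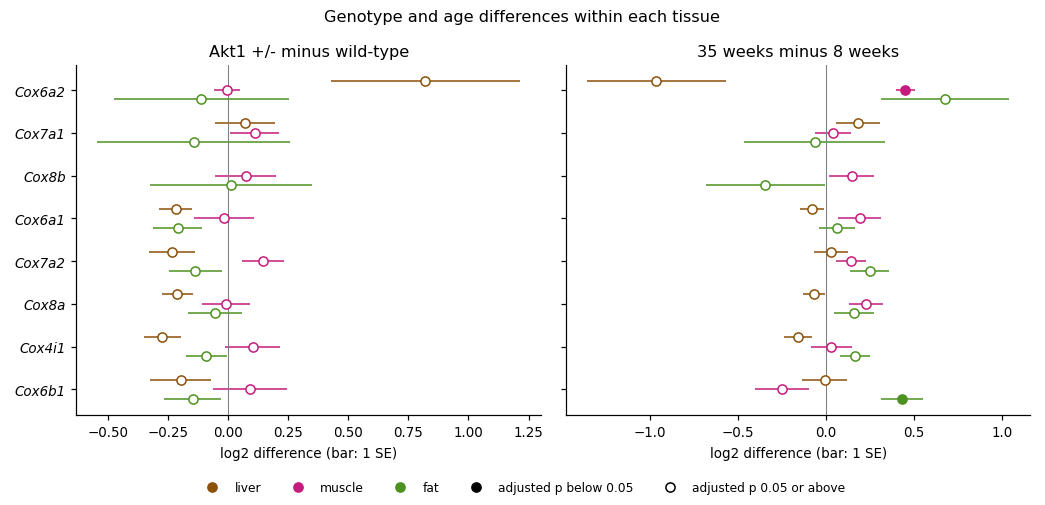
Log2 difference with 1 SE for each gene in liver, muscle and fat, for Akt1+/- minus wild-type (left, averaged over both ages) and 35 minus 8 weeks (right, averaged over both genotypes), with filled symbols where the adjusted p is below 0.05. Filled symbols stand only for age, at Cox6a2 in muscle (0.45) and Cox6b1 in fat (0.43); Cox8b in liver and Cox4i2 were not tested.

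The H forms varied more between the 14 fat arrays than between those of muscle. Fat levels of Cox7a1 were −0.29, 2.12 and 1.77 for wild-type mice, then −0.08, 0.16 and 0.58 for Akt1+/- mice at 8 weeks, and 0.24, 0.60, −0.19 and 0.55 for wild-type mice, then −0.21, 0.72, 1.63 and 1.83 for Akt1+/- mice at 35 weeks. Cox8b stood at 1.94, 2.63 and 2.55, at 1.27, 2.56 and 1.56, at 1.43, 0.97, 1.79 and 1.57, and at 0.85, 1.54, 3.01 and 2.77 in the same order. The wild-type levels of Cox8b at 8 weeks lay above those at 35 weeks without overlap, and Akt1+/- levels overlapped. Akt1+/- replicates 3 and 4 at 35 weeks held the 2 highest levels of Cox8b and 2 of the 4 highest of Cox7a1.

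On those 2 arrays Ucp1, the uncoupling protein of brown adipocytes, stood at 1.56 and 0.64, against −6.31 to −1.40 on the other 12 fat arrays. Cidea, a lipid droplet protein of brown adipocytes, stood at 3.96 and 3.79 there and at −0.38 to 3.45 on the others. Cidea was also present in muscle, with group means of 2.02 to 3.13, against 0.16 to 2.15 in fat. Among all genes tested in fat, the 3 whose levels over the 14 fat arrays were most like those of Cox8b were Cidea (Pearson r 0.92), Mfsd2a (0.88) and C1galt1c1 (0.88). Ucp1 had r 0.76 with Cox8b and 0.49 with Cox7a1, and Cox7a1 had r 0.70 with Cox8b. Most like Cox7a1 were Prkca (0.96), Prxl2b (0.95) and Lrrc27 (0.95), and most like Cox6a2 were Ocel1, Trib3 and Btg2 (0.84, 0.84 and 0.80). The points share tissue, age and genotype groups, and these are descriptions.

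The 7 brown or beige adipocyte genes had a log2 summed level at 8 weeks of 1.98 to 3.30 in wild-type and 1.33 to 3.78 in Akt1+/- fat, and at 35 weeks of 1.14 to 2.22 and 1.36 to 4.43, with 5 to 7 of 7 well above background. The same sum was 4.12 to 4.74 in liver and 5.65 to 6.01 in muscle, so it is not particular to fat and does not measure brown adipocytes here. Striated muscle transcripts were present in fat as well, where 5 or 6 of 6 skeletal muscle markers were above background on each array, although Ckm, muscle creatine kinase, was above background on 6 of 14. Fast myosin (Myh4) stood at 1.32, −0.70, −0.24 and −1.71 in wild-type fat at 35 weeks, where Cox6a2 was −1.35, −3.03, −3.01 and −3.60. In Akt1+/- fat of that age Myh4 was lower, at −3.78 to −2.62, while Cox6a2 ran from −3.17 to −1.90. At 8 weeks Myh4 was above background on 1 of 6 fat arrays and Cox6a2 ran from −4.34 to −2.78. Wild-type replicate 1 at 35 weeks was highest of its group in both Myh4 and Cox6a2. Mean Cox6a2 was −2.75 in that group and −2.68 in Akt1+/- fat of the same age. The part of muscle transcripts in the fat levels of these genes was not tested.

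**Figure D5:**
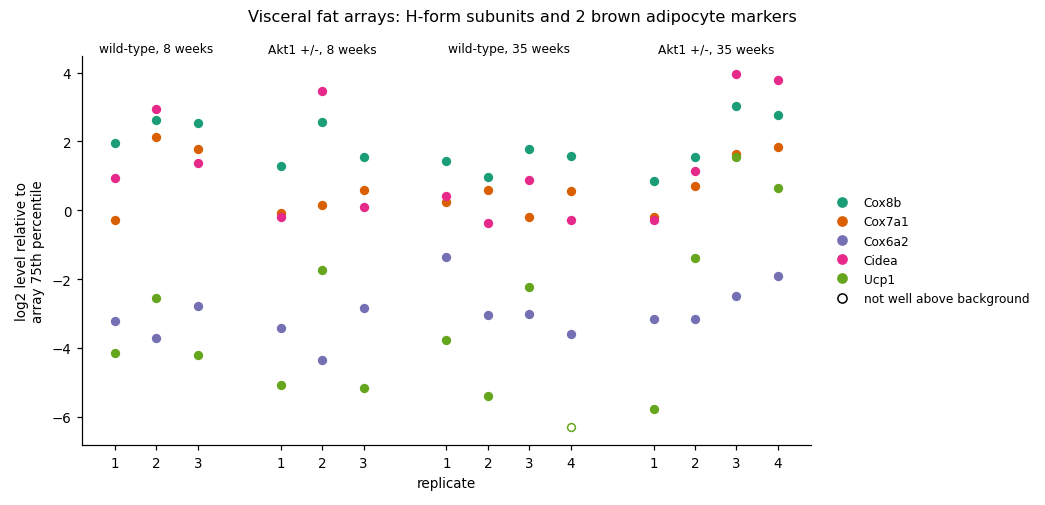
Level (log2 relative to the array's 75th percentile) of Cox8b, Cox7a1 and Cox6a2 with Cidea and Ucp1 on each of 14 visceral fat arrays, with replicates numbered within each group and open symbols where the spot was not well above background. Cox8b and Cidea are high on the same arrays, including Akt1+/- replicates 3 and 4 at 35 weeks, while Cox6a2 had r 0.02 with Cox8b over these arrays; levels of different genes are not comparable.

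Over the 12 group means, the 3 genes most like Cox6a2 were Actn2, a protein of the muscle Z disc, Apobec2 and Pgam2, the muscle phosphoglycerate mutase (Pearson r 0.998, 0.998 and 0.997). Hspb6, Myog and Olfr279 followed Cox7a1, and Epdr1, Pdlim3 and Slc25a4 followed Cox8b. Most like Cox6a1 were Ces1f, Cyb5a and Rbm47, and most like Cox8a were Ppia, Itpka and Emc8. Cox4i1 was followed by Pet100, a factor of complex IV assembly, Naa38 and Acot13 (r 0.99 each). Cox6b1 was followed by the array feature NAP049879-1 and by Ndufs3 and Ndufs8, subunits of complex I, and Cox7a2 by Mrpl35, Nudt19 and Ldhd (r 0.98 each). With 3 tissues so far apart, such values rest on few independent points.

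Of 10 other nuclear subunits listed, 7 were tested between tissues, and 6 were higher and 1 lower in muscle than in liver, where 85.8% of all genes were called (median log2 0.89, against 0.06 over all genes), led by Cox5a (1.38, SE 0.05), Cox5b (1.07, SE 0.06) and Cox6c (1.02, SE 0.07). Cox6b2, the testis form of subunit 6b, was the lower one (−0.96, SE 0.09). In fat against liver 1 was higher and 6 lower (median −0.91, against −0.04). COX2, the single probe for a subunit encoded in mitochondrial DNA, did not pass between muscle and liver (0.03, SE 0.06, limma adjusted p = 0.60). COX2 was lower in fat than in liver (−0.93, SE 0.06). For COX2 and the other subunits, fat against liver was not tested under normexp and quantile normalisation. That setting reversed fat against liver for Cox4i1, Cox6a1, Cox7a2 and Cox8a.

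With age, 3 of 8 other subunits rose in muscle and none fell (median 0.22, against 0.01), namely Ndufa4 (0.32, SE 0.09), Cox7b (0.31, SE 0.08) and Cox7a2l (0.25, SE 0.06). That share is close to the 31.3% of all genes called for age in muscle. COX2 rose by 0.66 (SE 0.08, adjusted p = 0.00011), from 8.10 to 8.67 at 8 weeks to 8.99 to 9.08 at 35 weeks. In fat COX2 did not pass for genotype (−0.29, SE 0.09, adjusted p = 0.13) or the interaction (−0.65, SE 0.18, adjusted p = 0.086), although at 35 weeks its Akt1+/- levels, 7.28 to 7.64, lay below the wild-type levels, 8.04 to 8.12, without overlap. In fat 2 of 8 other subunits rose with age, Cox6c (0.41, SE 0.09) and Cox7b (0.31, SE 0.09), where 19.3% of all genes were called. With genotype, 3 of 7 other subunits fell in Akt1+/- liver and none rose (median −0.16, against 0.02), Cox7b (−0.32, SE 0.07, adjusted p = 0.028), Cox5b (−0.27, SE 0.06, adjusted p = 0.032) and Cox5a (−0.25, SE 0.06, adjusted p = 0.033). This count was 0 without the 2 liver arrays with muscle transcripts, 0 with normexp and quantile normalisation and 4 with median scaling, and 6.03% of all liver genes were called for genotype. The liver genotypes shared no slide at either age, so slide and genotype cannot be told apart.

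Of 24 assembly factors listed, 22 were on the array and tested. In muscle against liver 10 were higher and 10 lower, where 85.8% of all genes were called, from Cox10 (1.65, SE 0.09), Cox14 (1.35) and Cox11 (0.98) to Coa7 (−1.06), Coa6 (−1.12) and Cox16 (−1.39). In fat against liver 1 was higher and 21 lower (median −1.001, against −0.04 over all genes), where 86.2% of all genes were called. Whether this fat against liver result held under normexp and quantile normalisation was not tested. That setting reversed fat against liver for Cox4i1, Cox6a1, Cox7a2 and Cox8a. With age 5 rose and 1 fell in muscle, where 31.3% of all genes were called, Cox10 (0.58, SE 0.13) among the former and Cox18 (−0.20, SE 0.07) the latter. Of 8 regulators of mitochondrial genes, 5 were higher and 2 lower in muscle than in liver, led by Esrra (2.02, SE 0.08), Ppargc1a (1.02, SE 0.34) and Nrf1 (0.55, SE 0.06), a share near that of all genes. With age in muscle 3 of these rose, Esrrg (0.83, SE 0.09), Ppargc1b (0.80, SE 0.18) and Tfam (0.68, SE 0.18), and Nrf1 fell by 0.23. Of the 2 cytochrome c genes on the array, Cycs was tested in muscle and in fat, where it did not pass for age or genotype (adjusted p 0.61 to 0.90), and neither was tested in liver or between tissues.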

How the data were processed

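Agilent whole mouse genome arrays were scanned and read by the authors with Agilent Feature Extraction (9.1 per the submitters' notes, 9.5.3.1 per the file headers), which gave a background-corrected, processed intensity per spot. The deposited series table holds log2 values and equals log2 of that intensity minus each array's 75th percentile. The authors then used GeneSpring and a two-way analysis of variance.

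Here the log2 processed intensity minus each array's 75th percentile was analysed, with no pseudocount. Control spots were left out, as was, from each fit, any probe flagged as an outlier on an array of that fit. The brightest probe over all arrays stood for a gene. A gene entered a fit if some group in the fit had 3 or more arrays where the scanner software flagged its spot as well above background. Of 41174 probes, 24375 were named through their accession, and the others through older or listed symbols. Fits were made with limma 3.58.1 (R 4.3.3), 1 per tissue and 1 over all 42 arrays, with Benjamini-Hochberg adjustment over all genes and a threshold of 0.05, and were tested on simulated data. Summaries used Python 3.11.15 with pandas 2.3.3 and numpy 2.4.6. Promoters came from the RefSeq table of GRCm38.p6. Promoters of Cox4i1, Cox4i2 and Cox6a2 were not analysed here. The genes named were every member, Akt1, the 3 genes with the highest Pearson r to a member, and up to 3 of the most and 3 of the least changed genes of a list, beside marker genes named with the arrays they set apart. The members and lists were chosen with earlier results of these data known.

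No spot of the array was saturated on any array. Arrays lay on 12 slides, at most 4 to a slide. At 35 weeks each group filled a slide of its own, and the liver genotypes shared no slide at 8 weeks either, so slide and genotype cannot be told apart in liver at both ages and in muscle and fat at 35 weeks. No slide held both ages of a tissue. The number of arrays limits the precision. Where labels do not say that arrays of a group are separate mice, p-values measure the spread between these samples, which may be technical. Alternatives were other scalings and filters, the mean of all probes, replicate and slide blocks, subsets of arrays, leaving out each array, and, added after seeing the data, leaving out 2 liver arrays and blocking replicate numbers at 35 weeks only.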

Additional observations from a re-analysis of the deposited data

Results flagged for a closer look

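Of 54 sets of 4 arrays (9 genes in 6 groups at 35 weeks), 7 held an array far from the other 3, where chance gives about 1 in 20. In Akt1+/- muscle, replicate 3 was high for Cox6a1 (6.77, others 5.95 to 6.05) and Cox7a1 (9.10, others 8.42 to 8.47), and replicate 1 for Cox4i2 (−2.75, others −6.16 to −5.65). In Akt1+/- liver, replicate 2 was high for Cox4i1 (7.84, others 7.64 to 7.66) and replicate 1 low for Cox6b1 (1.62, others 2.09 to 2.13). In wild-type liver, replicate 1 was low for Cox7a2 (5.95, others 6.31 to 6.36) and Cox8a (7.08, others 7.20 to 7.22).

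The age effect differed between tissues by the test of the difference itself for Cox6a2 in muscle minus liver (1.41) and in fat minus liver (1.64), neither of which passed without the 2 liver arrays with muscle transcripts. It also differed for Cox6b1 in muscle minus fat (−0.68). The fit gave 1.80 for Cox8b in muscle minus liver, but Cox8b was above background on none of the 8 liver arrays at 35 weeks, so this value does not measure a difference in age effect.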

How the results depend on the processing

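Of 12 counts of genes called, muscle against liver (7), fat against liver (6) and muscle against fat (8) stayed within 1.5 times under the alternatives run. With 1 array left out they were 7, 5 to 6 and 8. The counts against liver include Cox8b, which did not pass the filter in liver. Leaving out 1 array gave 0 to 1 calls in liver for genotype, for age and for the interaction, 1 to 2 for age in muscle, 0 to 1 for age in fat, and 0 for genotype and for the interaction in muscle and in fat. Without liver Akt1+/- replicate 2 at 8 weeks, the calls were Cox6a2 (genotype 1.28, age −1.42, interaction −2.62), which that array's 2 group mates, those with muscle transcripts, then carried alone. Without wild-type replicate 1 at 8 weeks Cox6a1 passed for genotype (−0.27), and without wild-type replicate 1 or Akt1+/- replicate 2 at 35 weeks Cox4i1 did (−0.31 and −0.30).

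In liver, genotype gave 4 calls with median scaling and 1 with the methods' two-way test (3 at their unadjusted threshold). Age in liver gave 1 with normexp and quantile normalisation, 4 with median scaling, 1 with no filter on dim probes and 1 in a fit over all 42 arrays. Median scaling moved the median over all genes to −0.11 for genotype and −0.18 for age in liver, −0.22 for fat against liver and 0.19 for muscle against fat. It turned the split of liver genotype calls from 624 higher and 431 lower to 476 and 2638. Age in muscle gave 0 in the fit over all 42 arrays. Age in fat gave 0 with median scaling. The interaction in fat gave 1 with normexp and quantile normalisation (Cox4i1, 0.70). Beside these counts, the calls over all genes are given only for liver genotype under median scaling. Nothing particular to these genes is read from the other counts. Fat against liver reversed under normexp and quantile normalisation for Cox4i1 (0.23), Cox6a1 (0.18), Cox7a2 (0.055) and Cox8a (0.95); the cause was not tested.

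With the replicate number as a block, age in muscle gave 2 calls (Cox6a2 and Cox8a), and with the block at 35 weeks only, age in fat gave 0; neither block moved another count. Same-numbered arrays of the 2 genotypes deviated together at 35 weeks (r 0.108 to 0.523 over 12 pairs) and not at 8 weeks (r −0.196 to 0.071 over 9), so the numbers do not pair the samples throughout. For same-numbered arrays of 2 tissues, r was −0.0202 to 0.285 at 35 weeks (24 pairs) and −0.031 to 0.146 at 8 weeks (18 pairs). At 35 weeks the replicate number matched the position on the slide in each group, so number and position cannot be told apart there. A random block for the slide moved no count, but slides and groups largely coincide, so this block could not separate slide from genotype or age. Depth limits Cox4i2 and, in liver, Cox8b, which were mostly not well above background.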
